A study of Mus musculus with 12 samples.

Results

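The genes described here encode proteins that neutrophils store in granules, together with both subunits of calprotectin. There are 9 of them among the 55487 genes counted, and they were picked by symbol: Elane, Prtn3, Ctsg and Mpo of the azurophil granule, Ngp, Camp and Ltf of the specific granule, and S100a8 and S100a9 of calprotectin. All 9 were found in the counts of both experiments. The first experiment measured bone marrow macrophages (BMMs) from C57BL/6 mice, 3 libraries of animals whose ovaries had been taken out (OVX), which removes the main source of estrogen, and 3 of sham-operated animals. The second measured mesenchymal stem cells (MSCs) of the same strain that were untreated (MSC), kept across a transwell membrane from RAW264.7 cells (MSC+RAW) or kept across it from RAW264.7 cells given lipopolysaccharide (MSC+RAW-LPS), with 2 libraries each. The labels give 8 weeks of age for every sample, an age at which the methods place the ovariectomy itself.

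According to the methods, BMMs were grown from marrow with macrophage colony-stimulating factor, a culture that drives precursors toward macrophages, and MSCs were adherent marrow cells purified by passage, which the study typed by flow cytometry as bearing stromal surface proteins and lacking those of blood cells. RAW264.7 is a mouse macrophage line, and lipopolysaccharide is a cell wall component of bacteria that activates macrophages. RNA came from whole cultures. In such bulk RNA, fewer cells of a type and less RNA per cell cannot be told apart. Figure legends of the study speak in general of independent experiments, and give the MSC groups a larger n than the libraries analysed here. No source used here ties each library to an animal or culture of its own, so p-values measure only the spread between these libraries.

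Granule proteins are made in waves as a neutrophil matures in the marrow. Azurophil granules form first, in promyelocytes, and carry serine proteases and myeloperoxidase, whose messages are shut off afterwards. Specific granules form next, in myelocytes, and carry lactoferrin, cathelicidin and other antimicrobial proteins. S100A8 and S100A9 pair to form calprotectin, a calcium- and zinc-binding protein that fills the cytosol of neutrophils and is also made by monocytes and some activated macrophages.

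In GRCm38, by the GENCODE annotation, Prtn3 (chromosome 10, 79874476 to 79883174) and Elane (chromosome 10, 79886247 to 79888215) are neighbors 3072 bases apart. S100a8 (chromosome 3, 90668978 to 90670035) and S100a9 (chromosome 3, 90692632 to 90695721) lie on opposite strands 22596 bases apart with no annotated gene between them. Camp (chromosome 9, 109847379 to 109849617), Ngp (chromosome 9, 110419747 to 110423012) and Ltf (chromosome 9, 111019271 to 111042767) share chromosome 9, with 22 genes between Camp and Ngp and 29 between Ngp and Ltf. Mpo lies on chromosome 11 (87793581 to 87804413) and Ctsg on chromosome 14 (56099881 to 56102574). Exons of Prtn3 overlap Plppr3 and exons of Mpo overlap Gm11505. The strand setting of the counting is not given in the sources used here, so reads of these overlaps may be shared.

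Sequences before the gene start are shown for both calprotectin genes and for Camp and Ngp, because S100a8 and Camp moved in the MSC libraries while S100a9 and Ngp of the same chromosomes did not move with them. They come from RefSeq promoters (GRCm38.p6) and stop where the GENCODE gene begins. Capitals mark matches to the short motifs described after them.
S100a8 (chr3:90668821-90668977, plus strand): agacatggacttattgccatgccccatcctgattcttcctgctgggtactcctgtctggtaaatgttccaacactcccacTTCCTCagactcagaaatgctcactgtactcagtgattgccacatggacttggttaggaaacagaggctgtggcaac
S100a9 (chr3:90695722-90695971, minus strand): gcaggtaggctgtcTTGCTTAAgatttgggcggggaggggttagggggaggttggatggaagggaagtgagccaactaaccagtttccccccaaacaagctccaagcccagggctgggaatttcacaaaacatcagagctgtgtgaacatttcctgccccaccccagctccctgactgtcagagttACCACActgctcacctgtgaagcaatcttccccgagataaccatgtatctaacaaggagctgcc
Camp (chr9:109849618-109849706, minus strand): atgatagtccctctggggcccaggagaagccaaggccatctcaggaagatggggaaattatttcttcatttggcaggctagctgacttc
Ngp (chr9:110419558-110419746, plus strand): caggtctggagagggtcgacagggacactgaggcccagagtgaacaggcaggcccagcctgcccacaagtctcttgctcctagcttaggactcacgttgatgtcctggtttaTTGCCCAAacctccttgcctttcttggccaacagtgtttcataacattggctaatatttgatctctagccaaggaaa

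Motifs were searched on both strands in the 250 bases before the RefSeq start of all 9 genes, which for S100a8, Camp and Ngp reach past the stretches shown. The C/EBP letters TTGCNNAA were found at 2 places in Ngp and 1 place each in Ltf and S100a9, that is in 3 of the 9 genes, against 9.56% of 32851 mouse promoters of the same length. The PU.1 letters GAGGAA were found in Elane, Mpo, Prtn3, Ctsg, Ltf and S100a8, against 23.3% of all promoters. The RUNX letters TGTGGT were found in Ctsg and S100a9 (14.1% of all promoters), and TATAAA in Ctsg and S100a8 (12.4%). In S100a8, a PU.1 match directly adjoins TATAAA at position -30 from the start. The NF-kB decamer was found in 0 of the 9, against 7.25% of all promoters, and Camp held none of the motifs searched. These are matches of letters and were not tested for binding.

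Some libraries stood apart or went against their labels. Sham replicates 2 and 3 differed from each other hardly more at high counts than at low counts relative to sampling noise (1.08 times), and so did both MSC+RAW libraries (1.035 times), against 3.01 to 14.3 times for the other pairs within a group. Each of these pairs was counted as 1 sample, which leaves 10 samples from 12 libraries. Total counts ran from 17012923 to 45367105 per library. In the 6 libraries of the MSC experiment, 10 macrophage markers summed to between 12680 and 36220 CPM (counts relative to library size, scaled by the TMM method within each experiment), while 12 stromal markers summed to between 2672 and 4147 CPM. In the BMM libraries these sums ran from 42020 to 61250 and from 7538 to 8400 CPM. Lyz2, a lysozyme of macrophages and neutrophils, led the macrophage sum with 21660 CPM in untreated MSC (n = 2). Thy1, a stromal surface marker, was at 0.294 to 0.449 CPM in untreated MSC, the lowest of the 12. Lepr and Nt5e were also low, with means of 1.90 and 7.38 CPM. The other stromal markers were higher, among them Col1a2, Col3a1 and Ly6a with means of 903, 704 and 214 CPM. The cells are called by their labels below.

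The comparison of OVX with sham addressed how BMMs of an osteoporosis model differ. In these BMMs the calprotectin genes and the specific granule genes Ngp and Ltf were higher in every OVX library than in every sham library, and Mpo, Prtn3 and Ctsg were lower in every OVX library. None of these differences reached the rule used for a changed gene, a fold of at least 2 with an adjusted p of at most 0.05 (edgeR quasi-likelihood F-test, Benjamini-Hochberg over 15778 genes). By this rule 0 of 9 genes were called, against 9.06% of all genes tested. DESeq2 also called 0, and 4 of the 9 had an unadjusted p under 0.05 with edgeR, against 31.2% of all genes. By adjusted p alone, S100a9 was the 1 gene that passed, against 14.2% of all genes. Groups were apart for 7 of the 9 genes, against 44.5% of all genes tested. The median log2 fold change was -0.24 over the 9 genes and -0.01 over all genes.

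S100a9, the larger subunit of calprotectin, was at 608, 639 and 646 CPM in OVX and at 368, 425 and 412 CPM in sham replicates 1 to 3. The lowest OVX library was thus well above the highest sham library. The means were 631 ± 20.2 CPM (SD, n = 3) and 393 ± 35.5 CPM (SD, n = 2), a 1.60-fold difference, or 0.68 in log2 with an SE of 0.17 (edgeR, Benjamini-Hochberg adjusted p = 0.0383). S100a8, its partner, was at 436, 494 and 488 CPM in OVX and at 288, 367 and 365 CPM in sham. Its groups were also apart, at 0.53 in log2 with an SE of 0.19 (edgeR adjusted p = 0.102).

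Both calprotectin genes stayed in a narrow ratio. In TPM, which divides by gene length and then scales to each library's own total without TMM, the ratio of S100a8 to S100a9 was 0.539, 0.581 and 0.567 in OVX and 0.589, 0.649 and 0.668 in sham. All 6 libraries thus held more S100a9 than S100a8, and the ratio was lower in each OVX library than in each sham library.

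Mpo, the enzyme that makes hypochlorous acid, was at 3.69, 6.52 and 7.09 CPM in OVX and at 8.18, 12.9 and 15.7 CPM in sham. The highest OVX library lay just under the lowest sham library. The means were 5.76 ± 1.82 CPM (SD, n = 3) and 11.2 ± 4.32 CPM (SD, n = 2), which is 1.97-fold lower in OVX, or -0.98 in log2 with an SE of 0.35 (edgeR adjusted p = 0.0996). The value lies next to the fold limit, and the libraries decided the call. Without sham replicate 1 the log2 fold change was -1.33 and the gene was called (edgeR adjusted p = 0.0231, from 0.00106 to 0.425 over the settings run). Without sham replicates 2 and 3 it was -0.50.

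Ctsg, a chymotrypsin-like protease, was at 2.104, 2.88 and 2.46 CPM in OVX and at 3.96, 4.81 and 3.98 CPM in sham, a log2 difference of -0.74 with an SE of 0.28 (edgeR adjusted p = 0.110). The highest OVX library was below the lowest sham library. Elane, which digests elastin and bacterial proteins, was at 4.18, 6.65 and 8.27 CPM in OVX and at 8.08, 10.3 and 11.6 CPM in sham, so that OVX replicate 3 was above sham replicate 1. Prtn3, a protease close to elastase, was at 5.88, 6.75 and 6.82 CPM in OVX and at 6.98, 10.3 and 9.02 CPM in sham. The log2 fold changes of Elane and Prtn3 were -0.59 and -0.36, and neither passed (edgeR adjusted p = 0.242 and 0.344). In each of the azurophil genes, OVX replicate 1 was the lowest of the 6 libraries.

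Ngp, a specific granule protein related to cystatins and cathelicidins, was at 101, 124 and 128 CPM in OVX and at 93.6, 82.4 and 81.8 CPM in sham. Ltf, the iron-binding lactoferrin, was at 35.2, 40.4 and 40.7 CPM in OVX and at 29.0, 31.1 and 32.0 CPM in sham. Both had groups that were apart, with log2 fold changes of 0.42 (SE 0.19) and 0.35 (SE 0.18), and neither passed (edgeR adjusted p = 0.175 and 0.211). Camp, which encodes the cathelicidin CRAMP, was at 9.76, 13.1 and 12.9 CPM in OVX and at 12.1, 14.8 and 16.9 CPM in sham. Its groups overlapped and its log2 fold change was -0.24 with an SE of 0.23 (edgeR adjusted p = 0.520).

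**Figure D1:**
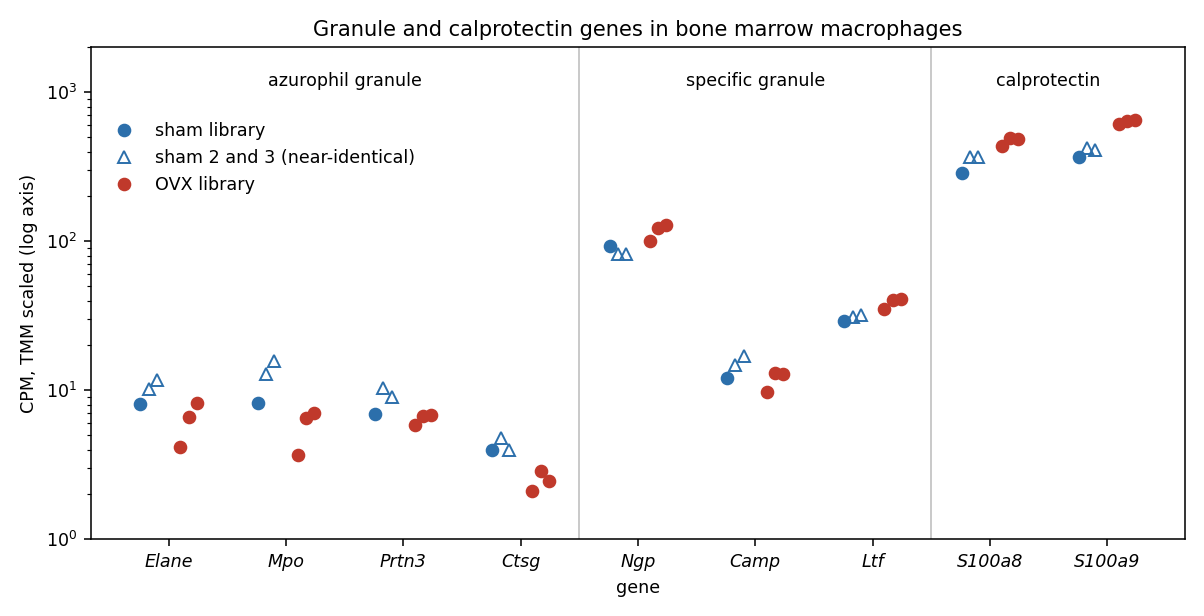
Level of each of the 9 genes in each BMM library, in TMM-scaled CPM on a log axis, with sham in blue, OVX in red and the near-identical sham replicates 2 and 3 as open triangles. S100a8 and S100a9 sit at 288 CPM or more in every library, the azurophil genes at 15.7 CPM or less, and OVX lies above sham for Ngp, Ltf, S100a8 and S100a9.

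In TPM, 11 of the 12 ratios of a specific granule gene to an azurophil gene were higher in each OVX library than in each sham library. The exception was Camp to Prtn3, at 3.79, 4.45 and 4.32 in OVX and 3.97, 3.28 and 4.28 in sham, where the groups overlapped. The 12 ratios share their genes. The ratio of Ltf to Mpo, both in TPM, was 9.47, 6.16 and 5.70 in OVX and 3.52, 2.39 and 2.03 in sham. The ratio of Ngp to Mpo was 76.6, 53.1 and 50.8 in OVX and 32.1, 17.9 and 14.6 in sham. The ratio of Camp to Mpo was 11.95, 9.11 and 8.22 in OVX and 6.70, 5.18 and 4.87 in sham, with a log2 fold change of -0.24 for Camp itself. All of these ratios were looked at after the values were known and carry no test. Summed over the set, the 4 azurophil genes reached 15.9 to 24.6 CPM in OVX and 27.2 to 40.3 CPM in sham. The 3 specific granule genes reached 146 to 182 and 128 to 135 CPM, most of it Ngp, and the calprotectin pair 1044 to 1134 and 656 to 792 CPM.

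Per length, the order of levels within a group is given in TPM. These values carry no TMM scaling, so they differ between groups otherwise than the CPM do, and Camp, lower in OVX by CPM, is higher by TPM. The order ran from S100a9 (2941 ± 135 TPM in OVX, SD, n = 3, and 1433 ± 121 TPM in sham, SD, n = 2) through S100a8 (1655 ± 116 and 896 ± 146 TPM) to Ngp (234 ± 31.1 and 137 ± 13.5 TPM). Camp followed in both groups with 38.3 ± 6.07 TPM in OVX and 35.1 ± 6.38 TPM in sham. These first 4 places were the same in both groups. Below them Ltf was at 27.3 ± 2.34 TPM in OVX and 16.7 ± 0.889 TPM in sham, and Elane at 15.8 ± 5.34 and 18.4 ± 3.82 TPM, so that these neighbors traded places and in sham lay within their spread. Prtn3 (9.10 and 9.14 TPM), Ctsg (5.83 and 7.70 TPM) and Mpo (4.10 and 6.24 TPM) came last. In sham, Ctsg and Mpo differed by less than the SD of Mpo (2.37 TPM).

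Other measures moved with these differences. The transcripts of S100a8 and S100a9 have 44.2% and 45.1% GC, against 51.5% to 60.7% for the azurophil genes. With trends on GC content and length removed from each library, the log2 fold change was 0.38 for S100a9 (edgeR adjusted p = 0.214, from 0.00205 with DESeq2 to this value over the settings run), 0.14 for S100a8 and -0.58 for Mpo. Prtn3 and Camp then changed sign, to 0.12 and 0.09. Elane had -0.16 (edgeR adjusted p = 0.750, from 0.0140 with the replicate block to this value), Ngp and Ltf had 0.52 and 0.49, and Ctsg -0.56. With plain library totals in place of TMM, the median of all genes moved to 0.23, 86.5% of called genes were higher in OVX in place of 65.1%, and S100a9 had a log2 fold change of 0.93.

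The 10 markers of mature neutrophils summed to 62.4 to 71.1 CPM in OVX and 104 to 122 CPM in sham. Csf3r, the receptor of granulocyte colony-stimulating factor, was the highest of them, at 26.3 to 35.0 CPM in OVX and 52.4 to 74.7 CPM in sham. Defining markers were low and did not pass. Ly6g was at 0.640 to 0.994 CPM in OVX and 0.208 to 0.380 CPM in sham, and Retnlg at 1.05 to 2.56 and 0.437 to 0.677 CPM. Wfdc21 was next, at 13.2 to 15.5 CPM in OVX and 21.5 to 27.6 CPM in sham, and these genes made up most of the sum. Of 9 markers tested, 5 had estimates above 0, with a median log2 fold change of 0.07 against -0.01 for all genes. Only Il1f9 passed, lower in OVX, that is 1 of 9 against 9.06% of all genes. Progenitor markers summed to 209 to 234 CPM in OVX and 157 to 226 CPM in sham, and 0 of 8 tested passed with edgeR.

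Monocyte markers summed to 3521 to 3741 CPM in OVX and 2600 to 2931 CPM in sham. Most of this sum was Fn1, with means of 2852 CPM in OVX and 2357 CPM in sham, which was not called. Among 6 tested, Ccr2 and Vcan were called higher (log2 fold changes of 2.46 and 1.73) and Ly6c2 lower (-1.18). Macrophage markers summed to 42020 to 46630 CPM in OVX and 57210 to 61250 CPM in sham, with Mrc1 higher and Adgre1 and Fcgr1 lower among 10 tested. Of 12 stromal markers, Nt5e was higher and Ly6a lower. Markers of eosinophils, basophils and mast cells summed to 21.6 to 25.8 CPM in OVX and 30.1 to 38.8 CPM in sham, with 0 of 4 tested called by edgeR. Most of this sum was Mcpt8 and Prss34, with log2 fold changes of -0.57 and -0.69. Cpa3 had -0.18 and Prg2 had 0.11. Erythroid markers summed to 3.72 to 5.21 CPM in OVX and 4.95 to 5.38 CPM in sham. The part of these cells in the differences of the 9 genes was not tested.

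**Figure D2:**
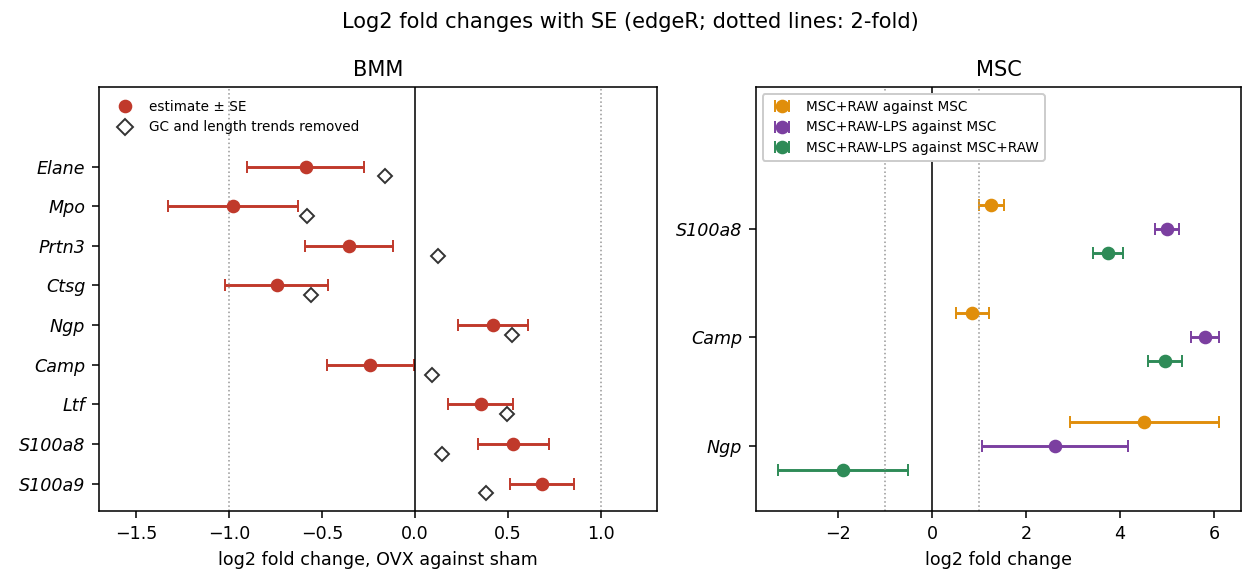
Log2 fold changes (horizontal axis) with SE bars from edgeR for the 9 genes in BMMs (left) and for the 3 genes tested in the MSC libraries (right), with dotted lines at a fold of 2 and, in the left panel, open diamonds for values with GC and length trends removed. In BMMs all estimates lie inside the 2-fold lines, and in the MSC libraries the estimates of S100a8 and Camp lie above 3.7 in both comparisons of MSC+RAW-LPS. Ngp entered the MSC fit only through MSC+RAW, where it was high, so its estimates there are a description.

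The MSC libraries addressed what MSCs express next to RAW264.7 cells, untreated or given lipopolysaccharide. Here S100a8 and Camp rose by large folds in MSC+RAW-LPS, and the other 7 genes stayed at or near 0 in every library. Only 3 of the 9 genes, S100a8, Camp and Ngp, had enough counts to be tested, and Ngp passed that filter only through the MSC+RAW libraries, so counts over the 3 are no support for a difference. In MSC+RAW-LPS against MSC, 2 of the 3 tested were called, both higher, against 11.8% of 18806 genes in either direction and 6.36% higher. In MSC+RAW against MSC, S100a8 was called, against 18.5% of all genes. In MSC+RAW-LPS against MSC+RAW, 2 of 3 were called, both higher, against 30.8% in either direction and 17.6% higher. These comparisons share their samples. MSC+RAW counts as 1 sample, which the fit assumes to vary like the other groups.

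S100a8 had 536 and 539 counts in MSC, 1347 and 1033 in MSC+RAW, and 11361 and 16202 in MSC+RAW-LPS. In CPM these were 10.95 and 15.8, 33.0 and 29.7, and 341 and 517. No groups overlapped, and the MSC+RAW-LPS libraries were far above all others. The log2 fold change against MSC was 5.01 (SE 0.26, edgeR adjusted p = 1.46e-07), a 32.2-fold rise. Against MSC+RAW it was 3.75 (SE 0.32, edgeR adjusted p = 9.46e-06). MSC+RAW against MSC gave 1.26 (SE 0.26, edgeR adjusted p = 0.00554), which fell under the fold limit with plain library totals (0.91). S100a8 is among genes that the study displayed from these same samples, so its direction is not independent evidence.

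S100a9 did not accompany S100a8 here. It had 0 counts in 5 of the 6 libraries and 2 counts in MSC+RAW-LPS replicate a. A count of 0 allows up to 3 counts, which corresponds to 0.0613 to 0.0957 CPM in these libraries for counting error alone, and to more where counts came in read pairs. In BMMs the 2 genes were in a ratio of 0.539 to 0.668, and in MSC+RAW-LPS S100a8 reached 958.5 and 1541 TPM with S100a9 at 0.224 and 0 TPM. The level of S100a8 in MSC+RAW-LPS (429 ± 124 CPM, SD, n = 2) stood beside 472 ± 31.7 CPM in OVX BMMs (SD, n = 3), but each experiment was scaled on its own and no test was made between them.

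Camp had 35 and 16 counts in MSC, 40 and 42 in MSC+RAW, and 955 and 1246 in MSC+RAW-LPS, or 0.715 and 0.470, 0.978 and 1.21, and 28.7 and 39.8 CPM. The groups did not overlap, and MSC+RAW-LPS stood far above both others. The log2 fold change was 5.81 against MSC (SE 0.29, edgeR adjusted p = 1.32e-07), a 56.2-fold rise, and 4.95 against MSC+RAW (SE 0.36, edgeR adjusted p = 3.01e-06). Between MSC+RAW and MSC it was 0.86 and did not pass (SE 0.35, edgeR adjusted p = 0.0863).

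Ngp, on the same chromosome as Camp, had 2 and 0 counts in MSC, 26 and 18 in MSC+RAW, and 2 and 8 in MSC+RAW-LPS. It was highest in MSC+RAW, where Camp and S100a8 were low next to their MSC+RAW-LPS levels. Since it entered the fit only through its MSC+RAW counts, its ratios are a description and no p is given. The ratio of its level in MSC+RAW to that in MSC was 24.2 (exact 95% interval 6.30 to 206, counting error only). In MSC+RAW-LPS against MSC the ratio was 6.42 (1.37 to 60.3), and MSC+RAW was 3.76 times MSC+RAW-LPS (1.87 to 8.38).

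The remaining genes were near the floor. Ltf had 0 counts in all 6 libraries. Elane had 4 counts, all in MSC replicate 2, and Mpo and Ctsg had 2 counts each, both in MSC+RAW-LPS replicate a. Prtn3 had 8 counts in MSC replicate 1, 7 in MSC+RAW-LPS replicate a and 0 elsewhere. No fold is given for these. Between 60.03% and 71.4% of low counts were even in each library, so that a count of 2 may be a single read pair, and the limits for 0 counts and the intervals given for Ngp are then too narrow.

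**Figure D3:**
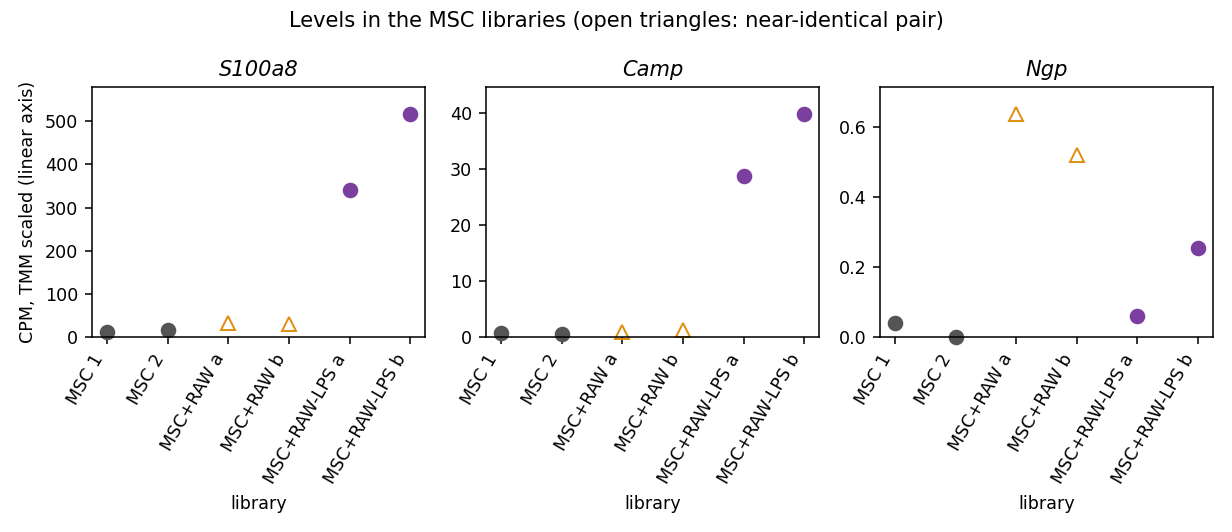
Level of S100a8, Camp and Ngp in each MSC library, in TMM-scaled CPM on linear axes that start at 0 and differ between panels, with the near-identical MSC+RAW libraries as open triangles. S100a8 and Camp are high in both MSC+RAW-LPS libraries, and Ngp is highest in MSC+RAW at 0.518 and 0.636 CPM.

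Markers of other cells moved as well in these libraries. The mature neutrophil list summed to 50.8 and 52.6 CPM in MSC, 39.4 and 39.7 in MSC+RAW, and 141 and 162 in MSC+RAW-LPS. Its highest genes were Csf3r, Mmp8 and Wfdc21, while Retnlg, Stfa2l1 and Mrgpra2b were at 0 in all 6 libraries and Ly6g was at 0 in MSC, 0.0978 to 0.230 CPM in MSC+RAW and 0 to 0.0600 CPM in MSC+RAW-LPS. Cd177, a neutrophil surface protein, was at 0 to 0.0409, 0.294 to 0.518 and 0 CPM. Both were thus highest in MSC+RAW, as Ngp was, at levels too low to be tested. Of 4 markers tested, Mmp8 and Wfdc21 were called higher against MSC. Il1f9 entered the fit only through MSC+RAW-LPS, at 1.98 to 2.23 CPM there and at most 0.0204 CPM elsewhere, and is given by its levels alone. Cxcr2, a chemokine receptor of neutrophils, was at 0 in both co-cultured groups.

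The macrophage list summed to 27160 and 27320 CPM in MSC, 35700 and 36220 in MSC+RAW, and 12680 and 13830 in MSC+RAW-LPS. Most of this sum was Lyz2, with group means of 21660, 26470 and 9586 CPM. Within the list, Adgre1 was higher in MSC+RAW-LPS than in MSC, and Cd68, C1qa, C1qb, Lyz2 and Mrc1 were lower. Monocyte markers summed to 1807 to 1943, 1540 to 1581 and 2687 to 2784 CPM. Most of this sum was Fn1, with group means of 1618, 1423 and 2401 CPM, which was not called in MSC+RAW-LPS against MSC. In that comparison Vcan was higher, and Ccr2 and F13a1 were lower (log2 fold changes of -4.25 and -3.99). Stromal markers summed to 2925 to 3097, 2672 to 2707 and 4082 to 4147 CPM, with Nt5e higher. Progenitor markers summed to 103 to 105, 64.5 to 75.4 and 86.3 to 111 CPM. Markers of eosinophils, basophils and mast cells summed to 41.2 to 49.1, 76.7 to 78.4 and 103 to 113 CPM. The other markers of this list did not rise with the sum. Prss34 and Cpa3 went from means of 0.190 and 0.363 CPM in MSC to 0 and 0.203 CPM in MSC+RAW-LPS. Ms4a2 and Fcer1a were near 0, and Prg2 and Epx were at 0 in every MSC library. Mcpt8, a basophil protease, made up nearly all of this sum and was called higher in MSC+RAW-LPS than in MSC (log2 fold change 1.28, edgeR adjusted p = 0.000104). Erythroid markers summed to 1.66 to 1.67, 1.87 to 3.55 and 3.54 to 4.79 CPM, with Hba-a1, a globin, called higher (2.83). The part of other cells in the rise of S100a8 and Camp was not tested.

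Several other granule genes were higher in MSC+RAW-LPS and lower in OVX BMMs. Of 18 further genes for granule proteins and their handling, 10 were tested in the MSC libraries. In MSC+RAW-LPS against MSC, 5 of the 10 were called higher, against 6.36% of all genes. The median log2 fold change was 1.13, against -0.006 for all genes. Lcn2, which binds bacterial siderophores, went from 53.9 CPM in MSC to 3021 CPM in MSC+RAW-LPS (log2 fold change 5.81, edgeR adjusted p = 7.8e-09). Mmp9, the gelatinase of tertiary granules, and Hp, the hemoglobin-binding haptoglobin, rose by 4.25 and 3.64. Srgn, the proteoglycan that packs granule contents, and Mmp8, the neutrophil collagenase, rose by 2.55 and 2.14, and Mmp8 too was displayed by the study from these samples. The same 5 genes were also higher against MSC+RAW, from 2.05 for Mmp8 to 5.17 for Lcn2. Ceacam10 and Padi4 were under 1 CPM in all 6 libraries and at most 0.0600 and 0.120 CPM in MSC+RAW-LPS. They entered the fit only through the groups where they were higher and are given by their levels alone.

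In BMMs, 16 of these 18 genes were tested, and 4 were called, all lower in OVX. Of all 15778 genes tested, 9.06% were called in either direction and 499 were called lower. The median log2 fold change was -0.10 for the list and -0.01 for all genes. Lcn2 was at 27.3 to 30.0 CPM in OVX and 56.2 to 61.6 CPM in sham (log2 fold change -1.07, edgeR adjusted p = 0.0088). Mmp9, Hp and Cfp, the complement factor properdin, had log2 fold changes of -1.71, -1.93 and -1.22. In MSC+RAW against MSC, Hp and Cfp were called higher, by 1.31 and 1.16. Genes of the list that were chosen after their values were seen, Chil3, Fcnb, Itgb2l and Olfm4, had estimates of 0.90, 0.95, 0.96 and 1.54 in BMMs and did not pass (edgeR adjusted p = 0.19, 0.18, 0.11 and 0.079).

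Among inhibitors of granule proteases, Slpi moved the same way as Lcn2. Slpi, which inhibits elastase and cathepsin G, was at 27.7 to 33.6 CPM in OVX and 78.7 to 83.1 CPM in sham, a log2 fold change of -1.42 (edgeR adjusted p = 0.0056). In the MSC libraries it was at 20.7 and 25.7 CPM in MSC, 54.9 and 56.8 in MSC+RAW, and 325 and 619 in MSC+RAW-LPS, a rise of 4.34 against MSC (edgeR adjusted p = 9e-07). Stfa3, a stefin that inhibits cysteine proteases, was at 0 to 0.0409 CPM in MSC and 15.0 to 15.7 CPM in MSC+RAW-LPS. In BMMs it was at 0 to 0.122 CPM in OVX and 0.469 to 1.52 CPM in sham. Serpina3n, a serpin, was at 0 to 0.122 and 0.697 to 1.55 CPM there. These genes entered the fits only through the group where they were high, so they are given by their levels alone. Of the other inhibitors tested, Slpi and Serpina3g were called lower in OVX, and Slpi and Wfdc21 (log2 fold change 5.79) higher in MSC+RAW-LPS than in MSC.

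Transcription factors that act on granule genes gave a mixed picture. In BMMs, 2 of 10 were called, against 9.06% of all genes. They were Spi1, which encodes PU.1 (log2 fold change -1.46), and Cebpd (-1.18), both lower in OVX. In MSC+RAW-LPS against MSC, Cebpb was higher (1.89), and Cebpa, a factor of early granulocyte development that the study also displayed from these samples, was lower (-2.11). Cebpe, the factor best known for specific granule genes, was at 0.352 and 0.592 CPM in MSC and at 0 in both co-cultured groups. It entered the fit only through MSC and is given by its levels alone. Of the others tested there, Cebpb and Cebpa were the called genes, and in MSC+RAW against MSC, Spi1 was (1.10, higher).

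Among 8 genes for receptors of calprotectin and their partners, Cd33 alone was called in BMMs, against 9.06% of all genes. It was at 34.3 to 49.2 CPM in OVX and 11.3 to 16.4 CPM in sham (log2 fold change 1.59, edgeR adjusted p = 0.0087). Tlr4, the receptor shared with lipopolysaccharide, had 0.47 there and did not pass. In MSC+RAW-LPS against MSC, Cd69 was higher (3.19) and Tlr4 lower (-1.16), and against MSC+RAW, Ly96, Cd14, Cd33 and Cd69 were higher. In MSC+RAW against MSC, Cd69 was lower (-2.71). Ager, the receptor RAGE, was at or under 1.28 CPM in all 12 libraries.

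The other S100 genes encode calcium-binding relatives of the calprotectin subunits. In BMMs, 0 of 8 tested were called with edgeR, against 9.06% of all genes, with a median log2 fold change of -0.24. In MSC+RAW-LPS against MSC, 1 of 9 was called, against 11.8% of all genes. This was S100a4, which was lower (-2.41). Against MSC+RAW, 0 of 9 had an estimate above 0, with a median log2 fold change of -1.86 against 0.08 for all genes. S100a6 and S100a4 had -2.33 and -4.29, while S100a8 rose by 3.75. In MSC+RAW against MSC, 8 of 9 had estimates above 0, with a median of 1.13 against -0.08 for all genes, and there S100a8 was higher too.

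**Figure D4:**
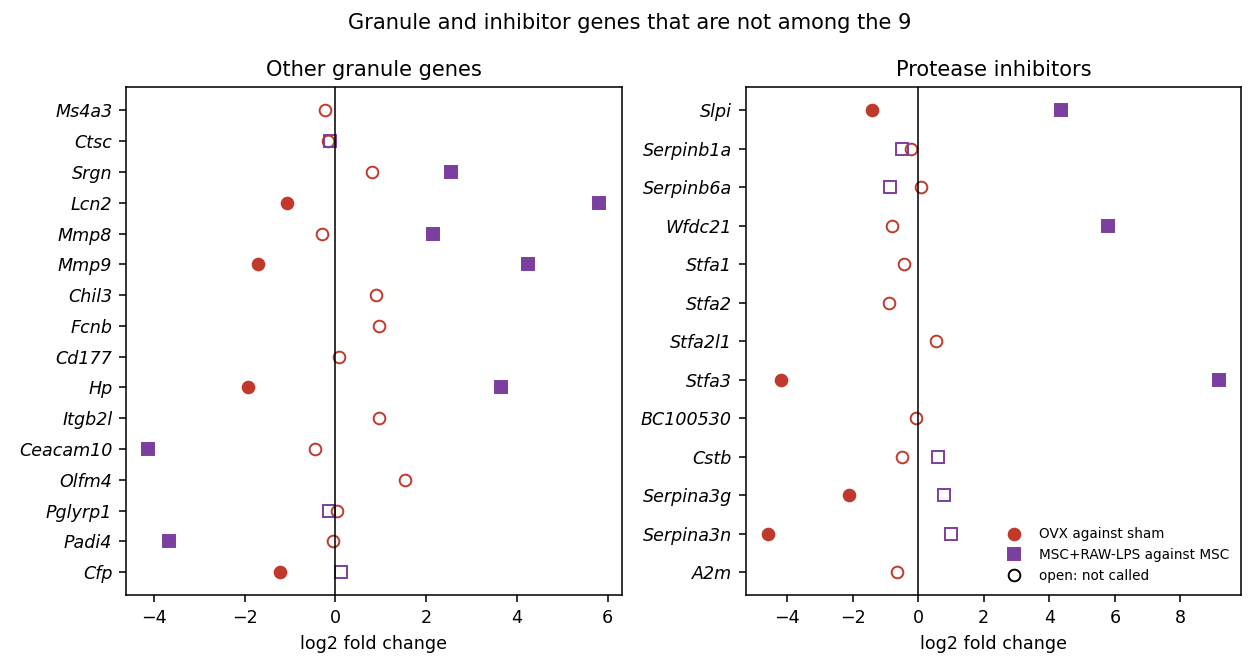
Log2 fold change of other granule genes (left) and protease inhibitors (right) in OVX against sham (red circles) and MSC+RAW-LPS against MSC (purple squares), filled where called and open where not. Lcn2, Mmp9, Hp and Slpi lie left of 0 in BMMs and right of 0 in the MSC libraries. The fitted values of Stfa3, Serpina3n, Ceacam10 and Padi4 rest on levels under 1.6 CPM in at least 1 group. Filled symbols of these genes are no evidence of a difference, since they entered that fit only through groups where they were high.

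The genes whose log2 CPM was most like that of S100a8 over the 10 samples were Kctd5, Mboat2 and Ddit4 (Pearson r = 0.976, 0.971 and 0.969 among 13474 genes). For Camp they were Rasl12, Bhlhe40 and Spsb1 (r = 0.989, 0.984 and 0.975). These values describe a pattern in which MSC and MSC+RAW samples were low and OVX, sham and MSC+RAW-LPS samples were higher. Samples of the same treatment are not independent points of such a pattern. For the other 7 genes the MSC samples were all at or near 0, so likeness only separated the experiments and is not given.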

How the data were processed

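Raw counts per gene were deposited for 12 libraries of poly(A) RNA. Per the labels, the authors trimmed reads with Trim Galore 0.6.7, aligned them to GRCm38 with HISAT2 2.1.0 and made counts with featureCounts 2.0.1. Libraries were kept apart and nothing was normalized or filtered. The deposited gene length gave TPM. Neither MSC+RAW nor MSC+RAW-LPS columns carry numbers that match the labels, so these libraries are called a and b.

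Each experiment was tested apart with edgeR 4.0.16 in R 4.3.3 (TMM, filterByExpr, quasi-likelihood F-test, two-sided, Benjamini-Hochberg). In the tests, the near-identical pairs were summed. Alternatives were DESeq2 1.42.0, other scalings and filters, trend removal, blocks and leaving out libraries. The scripts were tested on simulated data. Tables used pandas 2.3.3. Gene names came from GENCODE, which named 55141 genes. Named genes are the 9, up to 5 called genes of each list by size of change, leading and defining markers and the 3 genes most like S100a8 or Camp. Others are marked as chosen after their values were seen or carry no test. The members and lists were chosen with earlier results of these data known. One marker list is not reported here. Counting intervals cover counting error only, since counts are not independent molecules.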

Additional observations from a re-analysis of the deposited data

How the results depend on the processing

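S100a8 and Camp were called in both comparisons of MSC+RAW-LPS under all settings run, and leaving out 1 library put them at 4.68 to 5.29 and 5.56 to 6.18 (log2) against MSC. In OVX against sham, the number of the 9 genes called was 0, and it was 1 with no fold limit (S100a9), 1 with libraries kept separate (Mpo, -1.08), and 0 to 1 with a library left out, the 1 being Mpo without sham replicate 1. The replicate numbers share no stated origin, and same-numbered OVX and sham libraries correlated at 0.409, -0.026 and 0.353, so they were not taken as pairs. With libraries kept separate and the replicate number as a replicate block, 1 of the 9 was called (Mpo, -1.09), as it was with separate libraries alone, and with the code set as a block 0 were. The MSC groups could not be blocked by replicate number, since their columns carry no matching numbers. The set of neighboring library codes, with 1 library of each MSC group in each set, was used as a block in its place and called 2383 genes in MSC+RAW-LPS against MSC, 4489 in MSC+RAW against MSC and 6629 in MSC+RAW-LPS against MSC+RAW. Prtn3 changed sign to 0.12 and Camp to 0.092 without GC and length trends, and Camp to 0.0019 with plain library totals. In MSC+RAW against MSC, the main count of 1 became 2, with Ngp added, under RLE normalization, no filter, separate libraries, the set of neighboring library codes as a block and only the 2 groups compared, and 0 with plain library totals. Leaving out 1 library gave 1 to 2. The causes were not tested. Plain totals and the code block were chosen after seeing the data. Plain totals moved the median of all genes to 0.23 in OVX, -0.24 in MSC+RAW-LPS against MSC, -0.43 in MSC+RAW against MSC and 0.20 in MSC+RAW-LPS against MSC+RAW. The share of called genes that were higher moved from 54.1% to 36.1% in MSC+RAW-LPS against MSC and from 39.8% to 13.3% in MSC+RAW against MSC. Over all genes, the 1430 called in OVX became 593 without GC and length trends, 2244 with no fold limit, 717 without OVX replicate 1, 343 without OVX replicate 2 and 2309 without sham replicate 1. The 3474 in MSC+RAW against MSC became 2106 without those trends, 2255 without MSC replicate 2 and 5926 with no fold limit, and the 2212 in MSC+RAW-LPS against MSC became 4142 with no fold limit. Of 23 group levels of at least 1 CPM, 6 moved by more than 1 SD on plain totals. Ngp rests on few counts and entered the fit only through MSC+RAW, where it was high, so its calls are no evidence of a difference. Leaving out 1 library moved it from 3.77 to 7.68 (MSC+RAW) and from 1.27 to 5.79 (MSC+RAW-LPS) against MSC.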
